A study of Mus musculus with 12 samples.

Results

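The Spi1 locus was examined in mouse myeloid progenitors by chromatin accessibility. Its members were the ATAC-seq peaks whose start lies between positions 90900000 and 90970000 of chromosome 2 (mm9), an interval of 70 kb chosen to hold the Spi1 gene body and its upstream regulatory element, and they numbered 12 of the 60072 peaks in the table. ATAC-seq measures open chromatin by letting a transposase insert sequencing adapters into DNA that is free to be cut.

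Spi1 encodes PU.1, a transcription factor of the ETS family that directs the formation of macrophages, granulocytes and B cells. PU.1 acts by dose: progenitors with little of it retain multipotency or take other fates, and more of it drives myeloid maturation. An upstream regulatory element is known to work with the promoter to set this dose in blood cells, and PU.1 binds to that element itself.

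Cells were CD117+ bone marrow progenitors immortalized by a retrovirus carrying HoxB8 fused to the estrogen receptor, grown with IL-3 and estradiol (E2). Withdrawal of E2 inactivates HoxB8 and lets the cells mature. The 4 groups were HMGN1-OE cells at 96 h, wild-type cells at 96 h, HMGN1-OE cells at 0 h and wild-type cells at 0 h after E2 withdrawal, with 3 libraries each and 12 in all. HMGN1-OE cells came from mice that carry a transgene for HMGN1, a protein that binds nucleosomes, and wild-type cells came from littermates, all on a C57BL/6 background. Every group carried the ER-HoxB8 fusion. The promoter that drives the transgene and the number of immortalized lines per genotype are stated in none of the sources used here. Genotype and cell line therefore cannot be told apart. The labels call the replicates biologically independent. ATAC-seq measures no RNA, so the levels of Spi1 and HMGN1 and of myeloid marker genes were not checked.

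Libraries held 21581528 to 35560463 reads. The share of reads in peaks was 24.7% to 29.5% in HMGN1-OE and 35.1% to 50.02% in wild-type cells at 96 h, and 40.2% to 43.9% in HMGN1-OE and 35.3% to 39.0% in wild-type cells at 0 h. Wild-type replicate 1 at 96 h stood apart with 50.02% (Wilson 95% interval 49.998% to 50.035%, which covers counting error only), against 39.7% and 35.1%. Since this share differed between the groups, values are given as scaled RPKM. RPKM is reads divided by the width of the peak and the size of the library, and scaling used the trimmed mean of M values (TMM). TMM takes most peaks as level between libraries, and a change common to all peaks is lost by it.

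The 12 peaks were numbered by position and fell into 5 stretches, a new one starting where neighbouring centres lay over 4 kb apart. Peak 1 (chr2:90910167-90910998, 832 bp) stood alone. Peak 2 (chr2:90921305-90921536) and peak 3 (chr2:90922743-90923745, 1003 bp, the widest) formed the next stretch. Peak 4 (chr2:90928093-90928381) and peak 5 (chr2:90929254-90929796) followed, then peak 6 (chr2:90936582-90937453) and peak 7 (chr2:90938132-90938587). The last stretch held peak 8 (chr2:90949971-90950822), peak 9 (chr2:90952691-90952942), peak 10 (chr2:90953468-90953901), peak 11 (chr2:90955320-90955603) and peak 12 (chr2:90958401-90958598).

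No annotation of mm9 was used here, so peaks were not assigned to exons, introns or promoters. In the gene table of GRCm38.p6, used for gene order only, Spi1 stands between the long noncoding RNA Gm39874, with the zinc transporter gene Slc39a13 beyond it, and Mybpc3, which encodes a heart muscle protein. The element is placed about 14 kb before the Spi1 start. Centres of peaks 3 and 6 lie 13.8 kb apart, but 2 other pairs among the 66 also have a spacing of 13 to 15 kb (peaks 6 and 8, 13.4 kb, and peaks 7 and 9, 14.5 kb). Spacing alone thus does not say which peak covers the element and which the start.

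Peak 1 was by far the strongest, with a mean of 62.1 scaled RPKM, above 98.9% of all peaks. It was not assigned to a gene, and whether it belongs to Spi1 or to a neighbouring gene was not tested. Peak 3 followed with 16.8, peak 2 with 9.39, peak 6 with 7.70 and peak 4 with 5.38. Peak 12 was the weakest with 1.45, above 11.9% of all peaks. Reads per library ran from 993 to 2034 in peak 1 and from 375 to 929 in peak 3, but from 1 to 52 in peak 9 and from 2 to 33 in peak 12, so that single values of those low peaks are imprecise. All 12 passed the filter on low values.

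**Figure D1:**
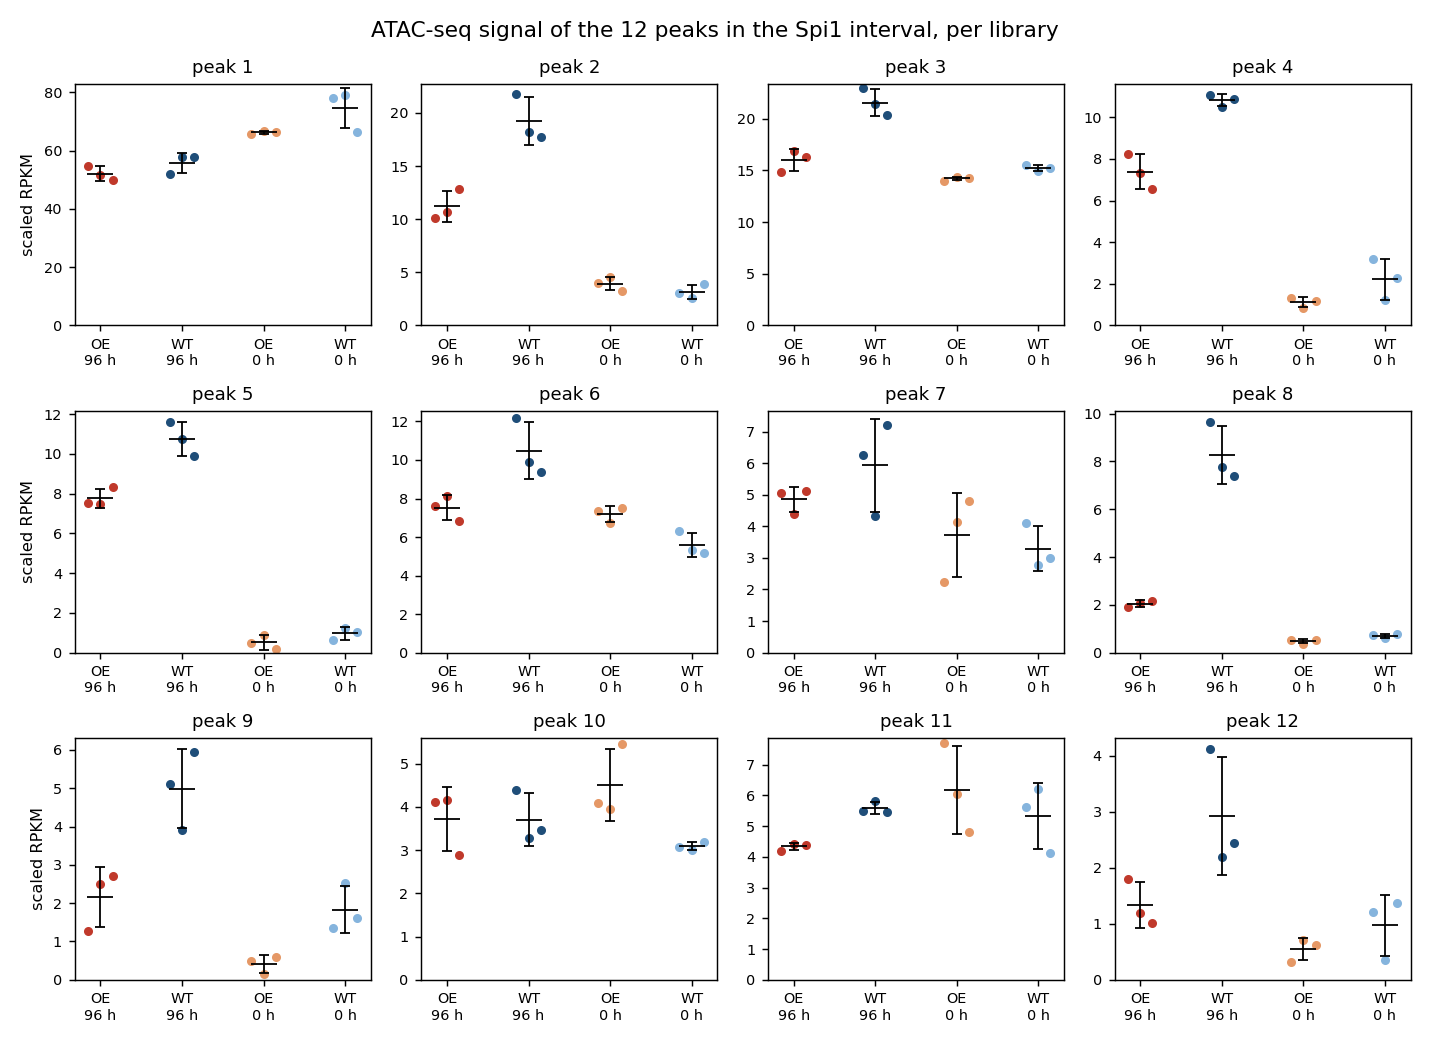
Scaled RPKM (y axis, from 0) of each of the 12 peaks in every library, with HMGN1-OE (OE) and wild-type (WT) cells at 96 h and then at 0 h. Points are libraries, wide ticks are means and error bars are SD (n = 3). Peak 8 reached 7.38 to 9.66 in wild-type cells at 96 h and no more than 2.18 in any other group.

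The first comparison asked how the locus changed as wild-type cells matured. Most of its peaks opened, but not peak 1, which held 69.0% of the interval's reads in wild-type cells at 0 h. Between 0 h and 96 h, 9 of 12 peaks rose, against 33.1% of all tested peaks, and 1 fell, against 30.9% (limma on log2 of scaled RPKM + 1, Benjamini-Hochberg over 57503 tested peaks, called at an adjusted p under 0.05). In 10 of 12 peaks all libraries at 96 h lay above all at 0 h, against 34.3% of tested peaks, and in 1 they lay below, against 32.5%. The median log2 fold change was 0.90 over the 12 peaks and -0.01 over all tested peaks. Peaks 5, 8, 2 and 4 changed most, with log2 fold changes of 2.58, 2.44, 2.28 and 1.92, above those of 99.3%, 98.9%, 98.3% and 96.1% of tested peaks. Adding 1 before taking logarithms understates the change of low peaks.

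Peak 8 had 9.66, 7.77 and 7.38 scaled RPKM in wild-type libraries at 96 h, against 0.720, 0.622 and 0.766 at 0 h. The means differed 11.8-fold, and the 2 groups lay far apart (log2 fold change 2.44, SE 0.19, adjusted p = 1.14e-09). Peak 5 was similar, at 9.89 to 11.6 at 96 h against 0.628 to 1.24 at 0 h, an 11.1-fold difference of means. Both were close to shut in E2 and open after 96 h.

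Peak 2, next to the strong peak 3, had 21.8, 18.2 and 17.7 scaled RPKM in wild-type libraries at 96 h, against 3.08, 2.59 and 3.87 at 0 h, and the means differed 6.05-fold. Peak 4 had 11.1, 10.5 and 10.9 at 96 h, against 3.18, 1.22 and 2.26 at 0 h, and the means differed 4.87-fold. No library at 0 h reached a library at 96 h in either peak.

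Peaks 3, 6 and 7 had smaller log2 fold changes. In E2 their wild-type means were 15.2, 5.60 and 3.29 scaled RPKM, the last near the 3.18 of peak 2. Peak 3 had 23.0, 21.4 and 20.4 scaled RPKM in wild-type libraries at 96 h, against 15.5, 14.9 and 15.3 at 0 h (log2 fold change 0.47, SE 0.08, adjusted p = 5.04e-05). Peak 6 had 12.2, 9.90 and 9.37 at 96 h, against 6.29, 5.35 and 5.15 at 0 h (log2 fold change 0.80, SE 0.13, adjusted p = 1.67e-05). Peak 7 rose by a log2 fold change of 0.68.

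The 2 faintest peaks also rose in wild-type cells. Peak 9 had 5.11, 3.91 and 5.95 scaled RPKM at 96 h, against 1.35, 2.52 and 1.62 at 0 h (log2 fold change 1.09, SE 0.24). Peak 12 had 4.13, 2.19 and 2.44 at 96 h, against 1.20, 0.357 and 1.37 at 0 h (log2 fold change 0.996, SE 0.25). Peaks 10 and 11 did not pass the test, with log2 fold changes of 0.20 (95% interval -0.17 to 0.56) and 0.07 (-0.27 to 0.41).

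Peak 1 went the other way. It had 51.9, 57.9 and 57.7 scaled RPKM in wild-type libraries at 96 h, against 77.9, 78.9 and 66.5 at 0 h (log2 fold change -0.41, SE 0.07, adjusted p = 7.09e-05). This call depends on the scaling: on the deposited RPKM, which is relative to library totals, the log2 fold change was -0.14 (adjusted p = 0.395). With those values 9 peaks were called higher, against 37.1% of tested peaks, and 0 lower, against 17.8%. Of the 12, 0 had an unadjusted p under 0.05 in the lower direction there, and limma-voom on the recovered reads called 1 lower.

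The same comparison in HMGN1-OE cells gave fewer calls. Between 0 h and 96 h, 5 of 12 peaks rose, against 31.8% of all tested peaks, and 2 fell, against 27.5%. The median log2 fold change was 0.47, against -0.01 over all tested peaks. The peaks that rose were 5, 4, 2, 9 and 8, and peaks 1 and 11 fell. In 7 peaks all libraries at 96 h lay above all at 0 h, against 33.4% of tested peaks, and in 2 they lay below, against 30.2%. With RPKM as deposited 5 were called higher, against 18.4%, and 5 lower, against 52.4%.

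Peaks 5 and 4 changed most in HMGN1-OE cells. Peak 4 had 8.25, 7.34 and 6.55 scaled RPKM in HMGN1-OE libraries at 96 h, against 1.31, 0.848 and 1.16 at 0 h (log2 fold change 1.99, SE 0.19). Peak 5 had 7.46 to 8.31 at 96 h, against 0.168 to 0.902 at 0 h (log2 fold change 2.56, SE 0.19). Peak 9 had 1.26, 2.495 and 2.72 at 96 h, against 0.503, 0.139 and 0.603 at 0 h (log2 fold change 1.14, SE 0.24). In all 3 the groups did not overlap.

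Peaks 2 and 8 opened in HMGN1-OE cells too, but to lower levels. Peak 2 had 10.1, 10.7 and 12.9 scaled RPKM in HMGN1-OE libraries at 96 h, against 3.96, 4.53 and 3.28 at 0 h, a 2.86-fold difference of means (log2 fold change 1.31, SE 0.14). Peak 8 had 1.91, 2.08 and 2.18 at 96 h, against 0.520, 0.370 and 0.535 at 0 h, a 4.32-fold difference of means (log2 fold change 1.05, SE 0.19).

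Peaks 3 and 6 did not pass the test in HMGN1-OE cells. Peak 3 had 14.9, 16.9 and 16.3 scaled RPKM at 96 h, against 14.02, 14.4 and 14.3 at 0 h (log2 fold change 0.16, 95% interval -0.01 to 0.33, adjusted p = 0.106). Peak 6 had 7.61, 8.11 and 6.84 at 96 h, against 7.33, 6.74 and 7.53 at 0 h (log2 fold change 0.05, 95% interval -0.21 to 0.32, adjusted p = 0.736). On RPKM as deposited both were called lower, with log2 fold changes of -0.44 and -0.51, on a scale where the median over all tested peaks was -0.53.

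Peak 12 had 1.81, 1.19 and 1.02 scaled RPKM in HMGN1-OE libraries at 96 h, against 0.320, 0.707 and 0.614 at 0 h, and missed the threshold (adjusted p = 0.0507). It passed without HMGN1-OE replicate 3 at 96 h, wild-type replicate 2 at 0 h or wild-type replicates 1 or 2 at 96 h, with adjusted p of 0.0349 to 0.178 over all 12 fits that each left out a library. Peak 1 fell to 54.7, 51.7 and 49.8 in HMGN1-OE libraries at 96 h, against 65.6, 66.6 and 66.5 at 0 h (log2 fold change -0.34, SE 0.07). Peak 11 was also called lower (log2 fold change -0.41, SE 0.16, adjusted p = 0.0368), and this call was lost without HMGN1-OE replicates 1 or 2 at 0 h or any of replicates 1, 2 and 3 at 96 h (adjusted p of 0.0105 to 0.211 over the 12 fits).

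**Figure D2:**
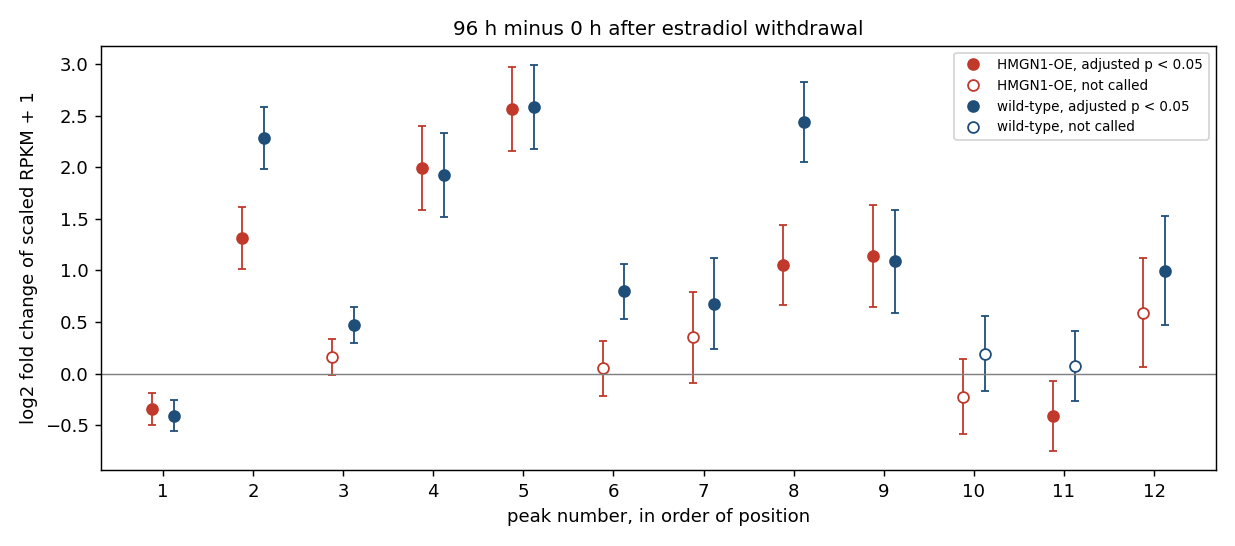
Log2 fold change of scaled RPKM + 1 between 96 h and 0 h for each peak (x axis, peak number in order of position), in HMGN1-OE and in wild-type cells. Filled points were called at an adjusted p under 0.05, open points were not, and bars are 95% intervals from limma (3 libraries per group). On this scale, with 1 added, the 2 genotypes lie close together for peaks 1, 4, 5 and 9. HMGN1-OE lies below wild-type for peaks 2, 6 and 8, whose difference in change was called by the test given below. HMGN1-OE also lies below, by less, for peaks 3, 7, 10, 11 and 12, whose difference was not called.

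The difference between these 2 time courses was tested itself, as an interaction. Of 12 peaks, 3 had a lower change in HMGN1-OE cells than in wild-type ones, against 6.21% of all tested peaks, and 0 had a higher one, against 10.8%. By limma, 0 had an unadjusted p under 0.05 in the higher direction, and limma-voom called 0 higher. The interaction was -1.39 for peak 8 (log2, SE 0.26, limma adjusted p = 0.00144), -0.97 for peak 2 (SE 0.20, adjusted p = 0.00299) and -0.74 for peak 6 (SE 0.18, adjusted p = 0.00734). These 3 calls held in each of 12 fits that left out a library.

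For peaks 4, 5 and 9 the interaction was 0.07, -0.02 and 0.05. Their 95% intervals, -0.50 to 0.65, -0.59 to 0.55 and -0.65 to 0.75, still allow differences of some size. These values depend on the 1 added before taking logarithms. As ratios of means, peak 4 rose 6.67-fold in HMGN1-OE and 4.87-fold in wild-type cells. Peak 5 rose 15.2-fold and 11.1-fold, and peak 9 rose 5.20-fold and 2.73-fold. Those ratios rest on few reads at 0 h and were not tested. Peak 3 had an interaction of -0.32 (adjusted p = 0.0713) that passed the threshold with TMM computed on library totals in place of reads in peaks (-0.38, adjusted p = 0.0333), with median-ratio (RLE) size factors (-0.35, adjusted p = 0.0495) and with scaling to reads in peaks without TMM (-0.49, adjusted p = 0.0105), so that 4 of 12 peaks were called under each of these. Over all tested peaks 9603, 9417 and 9993 were called in either direction under them, in that order, against 9785 in the main fit. On RPKM as deposited 8 of 12 peaks had a lower interaction, against 46.2% of all tested peaks, and 0 a higher one, against 0.824%.

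The comparison of the genotypes at 96 h asked where the locus differed once E2 had been withdrawn. It uses the same libraries at 96 h as the time courses and is not independent of them. No peak was higher in HMGN1-OE cells, against 10.6% of all tested peaks, and 6 of 12 were lower, against 11.4%. Neither an unadjusted p under 0.05 nor limma-voom gave a higher peak (0 each). In 9 of 12 peaks all 3 HMGN1-OE libraries were below the 3 wild-type ones, against 18.6% of all tested peaks, and in 0 above, against 18.1%. The median log2 fold change was -0.42, against 0.01 over all tested peaks, and all 12 values were below 0, the highest that of peak 10 at -0.00042.

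Peak 8 differed most. At 96 h it had 1.91, 2.08 and 2.18 scaled RPKM in HMGN1-OE libraries, against 9.66, 7.77 and 7.38 in wild-type libraries. The wild-type mean was 4.03 times the HMGN1-OE mean, and the log2 fold change of -1.59 (SE 0.19, adjusted p = 7.20e-06) was lower than that of all but 0.296% of tested peaks. Peak 8 was called lower in HMGN1-OE cells also on RPKM as deposited (log2 fold change -2.04).

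Peak 2 had 10.1, 10.7 and 12.9 scaled RPKM in HMGN1-OE libraries at 96 h, against 21.8, 18.2 and 17.7 in wild-type libraries (log2 fold change -0.73, SE 0.14, adjusted p = 0.00123). Peak 3 had 14.9, 16.9 and 16.3 in HMGN1-OE libraries, against 23.0, 21.4 and 20.4 in wild-type libraries (log2 fold change -0.41, SE 0.08, adjusted p = 0.00156). The 2 peaks lie 1.82 kb apart, and in both the groups did not overlap.

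Peak 6 had 7.61, 8.11 and 6.84 scaled RPKM in HMGN1-OE libraries at 96 h, against 12.2, 9.90 and 9.37 in wild-type libraries (log2 fold change -0.43, SE 0.13, adjusted p = 0.0202). The call was lost without wild-type replicate 1 at 96 h, the library with 50.02% of reads in peaks (log2 fold change -0.32, adjusted p = 0.125), and without HMGN1-OE replicate 3 at 96 h (-0.37, adjusted p = 0.0783). The part of reads in peaks in this result was not tested further.

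Peak 9 had 1.26, 2.495 and 2.72 scaled RPKM in HMGN1-OE libraries at 96 h, against 5.11, 3.91 and 5.95 in wild-type libraries (log2 fold change -0.94, SE 0.24, adjusted p = 0.00759). Peak 12 had 1.81, 1.19 and 1.02 in HMGN1-OE libraries, against 4.13, 2.19 and 2.44 in wild-type libraries (log2 fold change -0.73, SE 0.25, adjusted p = 0.0443). Peak 12 rests on 5 to 33 reads per library at 96 h and lost its call without HMGN1-OE replicates 2 or 3 at 0 h or at 96 h, or wild-type replicates 1 or 3 at 96 h (adjusted p of 0.0304 to 0.213 over the 12 fits). It was lost as well with limma-voom on the recovered reads (adjusted p = 0.0983) and a pseudocount of 0.5 (0.0691).

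Peaks 4 and 5 had all HMGN1-OE libraries below all wild-type libraries at 96 h but did not pass the test. Peak 4 had 8.25, 7.34 and 6.55 scaled RPKM in HMGN1-OE libraries, against 11.1, 10.5 and 10.9 in wild-type libraries (log2 fold change -0.50, adjusted p = 0.0720). Peak 5 had a log2 fold change of -0.42 (adjusted p = 0.129). With limma-voom on the recovered reads both were called lower, with adjusted p of 0.0332 and 0.0130. A fit of only these groups called both lower as well (adjusted p of 0.00955 and 0.0208). So did a pseudocount of 5 (0.0112 and 0.0155) and RPKM as deposited (0.000741 and 0.00161). Peak 4 also passed without wild-type replicate 1 or 2 at 0 h, which enter only the estimate of the spread (adjusted p of 0.0318 to 0.197 over the 12 fits).

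Peak 1 had 54.7, 51.7 and 49.8 scaled RPKM in HMGN1-OE libraries at 96 h, against 51.9, 57.9 and 57.7 in wild-type libraries, and the groups overlapped (log2 fold change -0.10, 95% interval -0.25 to 0.05). Peaks 7 and 11, with log2 fold changes of -0.22 and -0.30, and peak 10 did not pass the test either. On RPKM as deposited 11 of 12 peaks were lower, against 47.1% of all tested peaks, and 0 higher, against 1.97%, on a scale where the median over all tested peaks was -0.48.

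**Figure D3:**
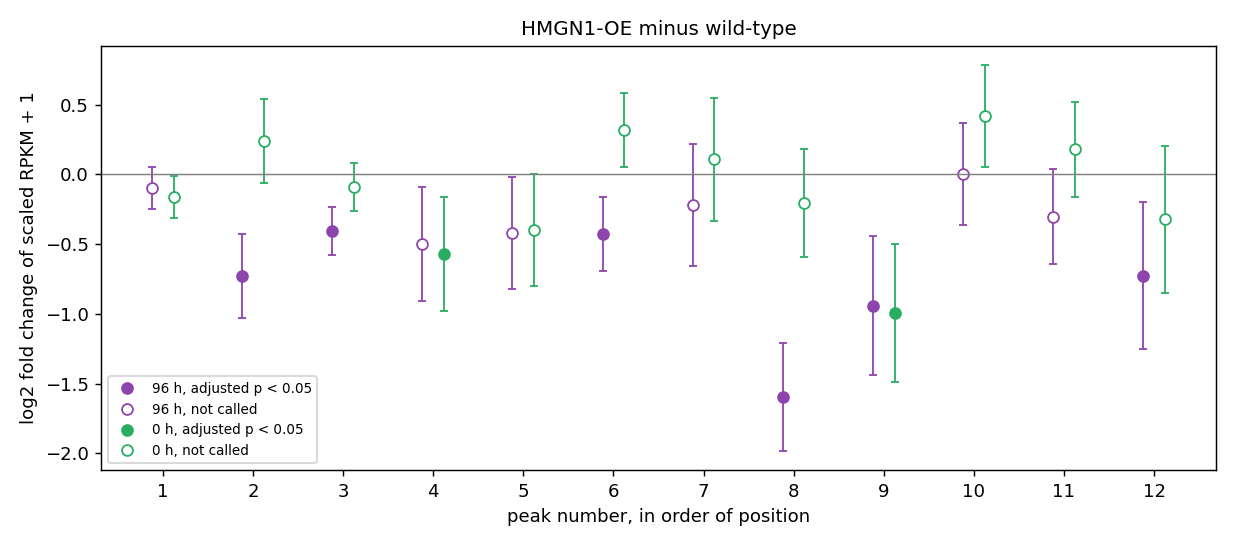
Log2 fold change of scaled RPKM + 1 between HMGN1-OE and wild-type cells for each peak (x axis, peak number in order of position), at 96 h and at 0 h. Filled points were called at an adjusted p under 0.05, open points were not, and bars are 95% intervals from limma (3 libraries per group). At 96 h no point lies above 0, and peak 8 is the lowest at -1.59.

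At 0 h, before E2 withdrawal, the genotypes differed in fewer peaks. No peak was higher in HMGN1-OE cells, against 8.72% of all tested peaks, and 2 of 12 were lower, against 14.4%. By limma 2 peaks, 6 and 10, had an unadjusted p under 0.05 in the higher direction, and limma-voom called 1. All 3 HMGN1-OE libraries lay above the wild-type ones in 2 peaks, against 16.5% of tested peaks, and below in 3, against 21.8%. On RPKM as deposited 2 were called higher, against 14.3%, and 1 lower, against 2.62%. The median log2 fold change was -0.13, against -0.03 over all tested peaks.

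Peak 9 was nearly shut in HMGN1-OE cells at 0 h, with 0.503, 0.139 and 0.603 scaled RPKM (4, 1 and 5 reads), against 1.35, 2.52 and 1.62 in wild-type libraries (10, 18 and 15 reads). The log2 fold change was -0.99 (SE 0.24, adjusted p = 0.00452), and the groups did not overlap. At 96 h it was -0.94, but adding 1 before taking logarithms narrows differences between low values. The wild-type mean was 4.41 times the HMGN1-OE mean at 0 h, on few reads, and 2.31 times at 96 h. Peak 9 was called lower on RPKM as deposited as well (-0.88, adjusted p = 0.0145).

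Peak 4 had 1.31, 0.848 and 1.16 scaled RPKM in HMGN1-OE libraries at 0 h, against 3.18, 1.22 and 2.26 in wild-type libraries (log2 fold change -0.57, SE 0.19, adjusted p = 0.0386). The groups overlapped, and the call was lost with TMM computed on library totals (adjusted p = 0.0581), on RPKM as deposited (0.258) and without HMGN1-OE replicates 2 or 3 or wild-type replicates 1 or 3 at 0 h (adjusted p of 0.00413 to 0.231 over the 12 fits). Scaling to reads in peaks (adjusted p = 0.0926) and a pseudocount of 5 (0.0903) lost the call as well. So did limma-voom (0.135) and a fit of only these groups (0.0842).

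Peak 6 lay the other way at 0 h, with 7.33, 6.74 and 7.53 scaled RPKM in HMGN1-OE libraries, all above the 6.29, 5.35 and 5.15 in wild-type libraries (log2 fold change 0.32, SE 0.13, adjusted p = 0.0774). It was not called, but was called higher with TMM computed on library totals (0.38, adjusted p = 0.0377), on RPKM as deposited (0.59, adjusted p = 0.0462) and with limma-voom (0.38, adjusted p = 0.0279). Scaling to reads in peaks also called it higher (0.46, adjusted p = 0.0177).

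Peaks 1, 2, 3, 8 and 12 did not pass the test at 0 h. Peak 1 had 65.6, 66.6 and 66.5 scaled RPKM in HMGN1-OE libraries, against 77.9, 78.9 and 66.5 in wild-type libraries. Its log2 fold change of -0.16 passed only without wild-type replicate 3 at 0 h among the 12 fits (-0.24, adjusted p = 0.00866). Peak 2 had 3.96, 4.53 and 3.28, against 3.08, 2.59 and 3.87, and peak 3 had 14.02, 14.4 and 14.3, against 15.5, 14.9 and 15.3. Peaks 8 and 12 had log2 fold changes of -0.21 and -0.32, and peaks 5, 7, 10 and 11 of -0.40 to 0.42, none of them called in the main fit. In peak 10 all HMGN1-OE libraries lay above all wild-type libraries. It was called higher on RPKM as deposited (0.67, adjusted p = 0.0482) and with scaling to reads in peaks (0.54, adjusted p = 0.0384). Peak 5 was called lower without HMGN1-OE replicate 2 at 0 h (-0.58, adjusted p = 0.0474).

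A measure that does not depend on how libraries are scaled is the share of the interval's reads in each peak. Peak 1 held 52.5% ± 1.8 of them in HMGN1-OE and 44.1% ± 3.6 in wild-type cells at 96 h, and 66.2% ± 0.37 in HMGN1-OE and 69.0% ± 2.0 in wild-type cells at 0 h (SD, n = 3 each). Because peak 1 held so much, shares were also taken among peaks 2 to 12, a choice made after seeing these values.

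Among peaks 2 to 12, peak 8 held 4.29%, 4.38% and 4.72% of reads in HMGN1-OE libraries at 96 h, against 12.7%, 11.8% and 11.3% in wild-type libraries. At 0 h it held 1.61%, 1.13% and 1.59% in HMGN1-OE libraries, against 2.12%, 1.97% and 2.40% in wild-type libraries. The groups did not overlap at either time (at each, exact two-sided permutation p = 0.1, and 0.157 adjusted over 44 such share tests). As 0.1 is the smallest p that 3 libraries against 3 can give, no share can pass the threshold, and the shares are descriptions. Peak 2 held 6.63% ± 0.83 in HMGN1-OE and 7.55% ± 0.22 in wild-type cells at 96 h, and the groups overlapped (SD, n = 3 each, exact permutation p = 0.3). Peak 9 held 1.38% ± 0.48 in HMGN1-OE and 2.14% ± 0.49 in wild-type cells at 96 h, and 0.371% ± 0.22 in HMGN1-OE and 1.68% ± 0.62 in wild-type cells at 0 h, with no overlap at either time (SD, n = 3 each). Peak 10 held larger shares in HMGN1-OE cells at both times, 4.12% against 2.72% at 96 h and 6.94% against 4.85% at 0 h. A share can be larger only because other peaks are lower. At 96 h peak 10 averaged 3.72 scaled RPKM in HMGN1-OE and 3.71 in wild-type cells. Peak 3 held 41.0% ± 1.5 in HMGN1-OE and 36.7% ± 1.3 in wild-type cells at 96 h (SD, n = 3 each), all HMGN1-OE libraries above all wild-type libraries. Peak 6 held 16.7% ± 1.3 in HMGN1-OE and 15.5% ± 0.88 in wild-type cells at 96 h, and 22.4% ± 1.1 in HMGN1-OE and 17.6% ± 1.2 in wild-type cells at 0 h (SD, n = 3 each).

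**Figure D4:**
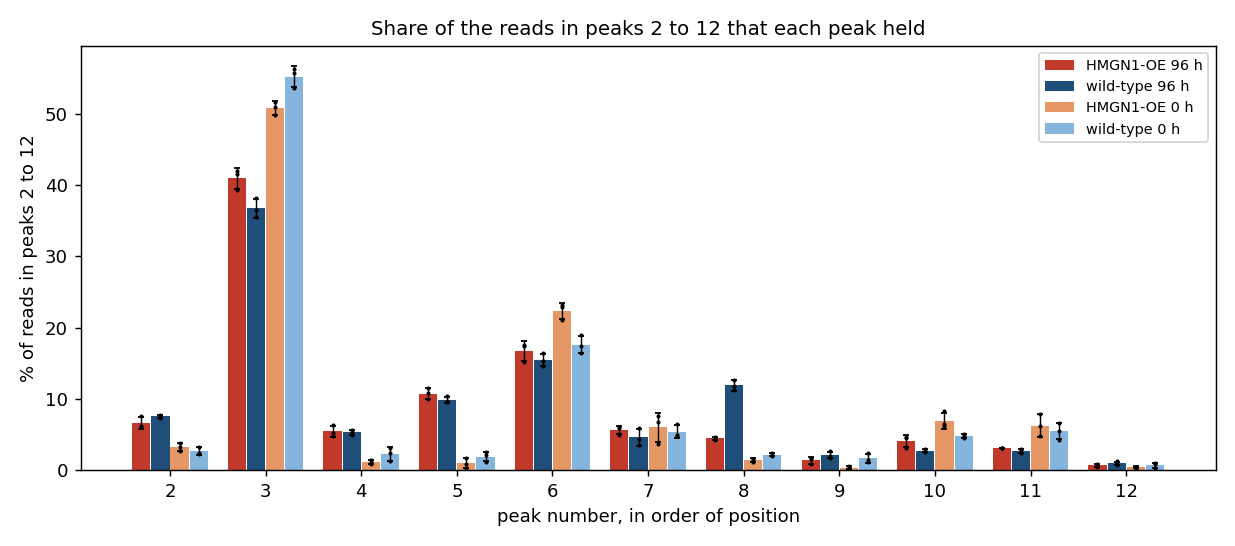
Share of the reads in peaks 2 to 12 that each peak held (y axis, %; x axis, peak number in order of position), for HMGN1-OE and wild-type cells at 96 h and then at 0 h. Bars are means, error bars are SD and dots are libraries (n = 3 per group). Peak 8 held 4.46% in HMGN1-OE against 11.9% in wild-type cells at 96 h, and peak 5 held 10.8% in HMGN1-OE against 9.90% in wild-type cells. A larger share need not be a higher signal.

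Sums are in RPM (reads divided by library size as in RPKM, but not by width). Over all 12 peaks, TMM-scaled sums averaged 82.5 ± 1.6 in HMGN1-OE and 105.5 ± 2.3 in wild-type cells at 96 h (SD, n = 3 each). At 0 h they averaged 83.2 ± 0.94 in HMGN1-OE and 89.6 ± 6.2 in wild-type cells. Per library total the averages were 62.9 in HMGN1-OE and 124.3 in wild-type cells at 96 h, and 99.0 and 85.8 at 0 h. Leaving out peak 1 was chosen after seeing the data. Summed over peaks 2 to 12, HMGN1-OE libraries had 38.0, 40.4 and 39.3 TMM-scaled RPM at 96 h, against 64.9, 56.3 and 55.8 in wild-type libraries. At 0 h the sums were 27.6, 27.9 and 28.7 in HMGN1-OE libraries, against 29.0, 26.8 and 27.2 in wild-type libraries. With TMM the genotypes overlapped at 0 h and lay apart at 96 h. With the other scalings they did not overlap at 0 h either, and there HMGN1-OE lay above wild-type: per library total the sums were 30.9, 32.7 and 36.7 RPM in HMGN1-OE libraries, against 27.7, 23.3 and 28.8 in wild-type libraries, and relative to reads in peaks they were 77.0, 79.7 and 83.6, against 71.6, 66.02 and 73.9.

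Intervals of equal width on either side were read the same way. The 70 kb before held 4 peaks, all tested, of which 1 was lower in HMGN1-OE cells at 96 h (median log2 fold change -0.12). The 70 kb after held 6 peaks, 5 of them tested, of which 2 were lower and 1 was higher (median -0.34). In wild-type cells between 0 h and 96 h the medians were 0.08 before and 0.25 after, against 0.90 in the Spi1 interval. In the interaction 1 of 4 peaks before and 2 of 5 after were called lower, a share no smaller than the 3 of 12 in the Spi1 interval, with medians of 0.11 before and -0.20 after, against -0.37. The difference between the intervals was not tested.

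By a root mean square difference over 12 libraries of log2 profiles centred on their own means, the peak elsewhere most like peak 1 was chr7:125272730-125273556 (difference 0.05). It averaged 51.3 scaled RPKM in HMGN1-OE and 53.4 in wild-type cells at 96 h, and 62.9 in HMGN1-OE and 75.1 in wild-type cells at 0 h. The next 4 lay on chromosomes 11, 3, 1 and 17, with differences of 0.05.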

How the data were processed

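Libraries were made by the authors with the Omni-ATAC protocol and processed with the ChiLin pipeline (BWA, MACS), and the deposited unit was RPKM per peak, on mm9. How peaks were merged, the peak threshold, duplicates and read shifting are stated in none of the sources used here. RPKM times peak width gave whole reads for 100.0% of values (tolerance 0.001 reads), from which reads and library totals were recovered. Replicates differed by more than sampling noise in every pair (chi-square per degree of freedom 1.96 to 4.63).

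Peaks reaching the equivalent of 10 reads in at least 3 libraries, and 15 reads in all, were tested (57503 of 60072). Scaled RPKM (TMM, trimming 30% on the ratio and 5% on the level) entered limma 3.58.1 in R 4.3.3 as log2(value + 1), with a mean-variance trend, robust moderation, all 12 libraries and 4 group means. The fit was tested on simulated data. A first version of that test missed the bar set for it, and its bars were set anew after this was seen. The version kept recovered the 4-fold changes but missed many 2-fold decreases in peaks of low reads, so that a peak of low reads that was not called may still differ. Plots used matplotlib 3.10.9.

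TMM was run from 2 library sizes. A first run used library totals. After its results had been seen, reads in peaks were made the main library size, to follow an earlier analysis of this table. Calls that differ are given under both. Members, lists and tests were likewise chosen with earlier results of these data known. Full values are given for the 5 strongest peaks and for those called between genotypes or in the interaction, and the others by ranges or folds. Likeness was planned for the strongest peak, among peaks outside the interval (at most 1 per 200 kb). Alternatives were other scalings, pseudocounts (0.5, 5), filters, limma-voom, a fit of the groups compared only, a replicate block, and each library left out in turn. Shares were compared by exact two-sided permutation tests. Intervals are 95%.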

Additional observations from a re-analysis of the deposited data

Results flagged for a closer look

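The change over 96 h differed between HMGN1-OE and wild-type cells by the interaction test in 3 peaks of the Spi1 interval. The difference was -0.97 (log2, limma adjusted p = 0.00299) for peak 2, -0.74 (adjusted p = 0.00734) for peak 6 and -1.39 (adjusted p = 0.00144) for peak 8. Peaks 2 and 8 rose in both genotypes, and less in HMGN1-OE cells. Peak 6 was called higher at 96 h in wild-type cells (0.80) and not in HMGN1-OE cells (0.05), and it lay at 7.20 ± 0.41 scaled RPKM in HMGN1-OE and 5.60 ± 0.61 in wild-type cells at 0 h (SD, n = 3 each). The share of reads in peaks also differed, at 24.7% to 29.5% in HMGN1-OE and 35.1% to 50.02% in wild-type libraries at 96 h, and its part in these differences was not tested.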

How the results depend on the processing

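The scaling mattered most. On RPKM as deposited, the counts were 2 higher and 1 lower between genotypes at 0 h, 11 lower at 96 h, 0 lower over time in wild-type cells, 5 lower over time in HMGN1-OE cells and 8 lower in the interaction (4 with RLE factors, TMM on library totals or scaling to reads in peaks). There, peaks 3 and 6 turned in HMGN1-OE cells over time (-0.44 and -0.51), as did the interaction of peak 1 (-0.84). On that scale the medians over all tested peaks were -0.53 over time in HMGN1-OE cells and -0.69 in the interaction. At 0 h, TMM on library totals (added after seeing the data) and limma-voom each gave 1 higher and 1 lower, scaling to reads in peaks 2 higher and 1 lower, and a pseudocount of 5, a filter at 30 reads and a fit of only these groups 1 lower each. Calls at 0 h over all tested peaks, in either direction, were 13297 in the main fit. They were 12810 with TMM on library totals, 15442 with limma-voom and 12814 with scaling to reads in peaks. A pseudocount of 5 gave 13594, the filter at 30 reads 13103 and the fit of only these groups 13824. With limma-voom 1 peak fell over time in HMGN1-OE cells, where 33909 of all tested peaks were called in either direction, against 34098 in the main fit. A filter at 30 reads removes peaks 9 and 12 from the test. Leaving out each library gave 1 to 2 lower at 0 h, 4 to 7 lower at 96 h, 9 higher and 1 lower over time in wild-type cells, 5 to 6 higher and 1 to 2 lower in HMGN1-OE cells and 3 lower in the interaction. Over all tested peaks those fits called 9570 to 13529 in either direction at 0 h and 8550 to 12778 at 96 h. Over time they called 34058 to 36844 in wild-type and 31109 to 34228 in HMGN1-OE cells, and 7346 to 10221 in the interaction. Under every setting tried, the interactions of peaks 2, 6 and 8 kept their direction and call, and no peak was called higher at 96 h in HMGN1-OE against wild-type cells. Same-numbered libraries did not deviate together (18 pairs, correlation -0.04 to 0.06), and differently numbered ones gave -0.06 to 0.06 (36 pairs). No pairing by number was seen, but such correlations cannot show how the libraries were handled. With a replicate block 6 peaks rose over time in HMGN1-OE cells, peak 12 being added (adjusted p = 0.0498), and no other call changed. Low depth limits most members. Peaks 4, 7, 9, 10, 11 and 12 had at most 129 reads in any library, and peaks 2, 5 and 8 as few as 17, 3 and 9, so that a missed call there says little.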

Other observations

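The profile of peak 8, low in HMGN1-OE and high in wild-type cells at 96 h, was compared with peaks elsewhere by the same root mean square measure over 12 libraries. Peak 8 was picked for this after its values were seen. The 5 most like it lay on chromosomes 9, 5, 11, 1 and 3, with differences of 0.16 to 0.18. The closest, chr9:60869521-60870798, averaged 4.16 scaled RPKM in HMGN1-OE and 13.9 in wild-type cells at 96 h, and 1.78 in HMGN1-OE and 1.52 in wild-type cells at 0 h. One of them, chr5:50008860-50009460, averaged 1.63 in HMGN1-OE and 6.51 in wild-type cells at 96 h, and 0.0897 in HMGN1-OE and 0.327 in wild-type cells at 0 h.

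Within the interval, the profiles of peaks 3 and 6 were the closest pair of the 66, with a root mean square difference of 0.18 over 12 libraries, and those of peaks 1 and 5 were the farthest apart, at 1.495. Peaks 8 and 2, 29.0 kb apart, differed by 0.37. These values share libraries and scaling and are descriptions.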
